A study of Caenorhabditis elegans with 6 samples.

Results

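The 6 Hox genes of Caenorhabditis elegans, ceh-13, lin-39, mab-5, egl-5, nob-1 and php-3, were followed across 6 ribosomal-RNA-depleted libraries of early embryos. The genes are the whole Hox family by name, although the family was picked for description with earlier results of these data known. Each symbol was matched to 1 identifier among the 20182 genes of the deposited count table. All 6 passed the filter on low counts and belong to the 13951 genes tested. The embryos came from 3 strains, each grown as 2 independent liquid cultures and harvested from gravid adults with hypochlorite. Strain GW638 (met-2 set-25) carries deletions of both met-2 and set-25, strain GW828 (cec-4) carries a deletion of cec-4, and strain GW1 is the wild-type. The first 2 genes encode enzymes that methylate lysine 9 of histone H3 (H3K9) in embryos, and CEC-4 is a chromodomain protein that holds chromatin with this mark at the nuclear envelope. The alleles are given only as deletions, and each genotype is represented by a single strain.

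Hox genes encode homeodomain transcription factors that give cells their identity along the head-to-tail axis. They act with the PBC and Meis cofactors, which are also homeodomain proteins, and Polycomb-type complexes keep them silent outside their domains. In C. elegans ceh-13 (labial type) acts in the anterior, lin-39 (Deformed and Sex combs reduced type) in the midbody, mab-5 (Antennapedia type) in the posterior body, and egl-5, nob-1 and php-3 (Abdominal-B type) in the tail. Embryos need ceh-13, and they need nob-1 together with php-3, whereas lin-39, mab-5 and egl-5 act largely in the migration and fate of postembryonic cells. The comparisons below ask whether transcripts of this family changed in embryos without these H3K9 methyltransferases or without the anchor of this mark at the nuclear envelope.

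In the WBcel235 annotation all 6 genes are protein coding and lie on chromosome III, in 3 pairs of neighbours, the last of them far from the others. The first pair is lin-39 (WBGene00003024; 7528641 to 7536632, minus strand) and ceh-13 (WBGene00000437; 7555660 to 7558041, plus strand), with 19027 bp and 0 counted genes between them. After 218.8 kb and 40 counted genes follow mab-5 (WBGene00003102; 7776835 to 7783454, minus strand) and egl-5 (WBGene00001174; 7814374 to 7817141, plus strand), which are 30.9 kb apart. The last pair, 4257.1 kb further on, is php-3 (WBGene00004024; 12074218 to 12077556) and nob-1 (WBGene00003779; 12077793 to 12084316), both on the minus strand with 236 bp between them. Both deleted methyltransferase genes are on the same chromosome, with met-2 at 0.558 Mb from egl-5 and set-25 at 1.2 Mb from nob-1, so these Hox genes are linked to the deletions in the double mutant. Noncoding RNA genes on the opposite strand lie inside lin-39 (2 genes) and egl-5 (1 gene), and their exons cover 0 coding bases of either. The deposited gene length equals the annotated coding length in 5 of the 6 genes. For nob-1 it is 801 bases against 732 in the annotation, which lists 3 transcripts of that gene.

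Library totals lay between 30171874 and 45677214 counts over genes, and the 6 Hox genes together made up 0.0154% to 0.0184% of each library. The targeted genes followed the labels. In their own deletion strain met-2 stood at 72.0 to 80.3 CPM (counts scaled to a common library size, adjusted by the TMM method of edgeR), set-25 at 23.1 to 28.4 CPM and cec-4 at 77.9 to 99.7 CPM, against 358 to 416 CPM, 95.3 to 117 CPM and 272 to 316 CPM in the other 4 libraries. All 18 maternal transcripts examined had counts in every library, whereas the 6 vitellogenin genes of the adult intestine summed to 12 to 34 counts a library. Markers of embryo stage differed between replicates. Late differentiation genes (18 genes such as unc-54 and dpy-7) summed to 1159 and 1671 CPM in met-2 set-25, 1165 and 1937 CPM in cec-4, and 1144 and 2239 CPM in wild-type, for replicates 1 and 2. These late sums rest largely on sqt-3, myo-3 and dpy-7 (523.5, 404 and 317 CPM in met-2 set-25 replicate 2). In met-2 set-25 snb-1 (21.1 and 18.1 CPM), mlc-3 and lin-42 were lower in replicate 2, and unc-15 was level. Early zygotic genes (18 genes such as end-1) had a lower sum in replicate 2 of each genotype. The sums were 1196 and 969.8 CPM in met-2 set-25, 1044 and 905 CPM in cec-4, and 1146 and 760 CPM in wild-type. They rest largely on vet-6, sdz-28 and pes-10 (411, 269 and 188 CPM in cec-4 replicate 1). Some members went the other way, such as ceh-27, with 52.5 and 63.4 CPM in cec-4 and 42.9 and 59.6 CPM in wild-type. These are whole-embryo extracts, in which fewer cells of a type and less RNA per cell cannot be told apart.

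The anterior gene ceh-13 was by far the most abundant of the family. It stood at 100.7 and 74.3 CPM in met-2 set-25, at 90.3 and 74.9 CPM in cec-4, and at 91.0 and 79.1 CPM in wild-type. In each genotype replicate 2 was the lower library, and the ranges of the 3 genotypes overlapped. The share of all genes tested with the same replicate order is not given here. The gap between the met-2 set-25 replicates, 0.44 on the log2 scale, exceeded every difference between genotype means, the largest of which was 0.08. The change was 0.04 in met-2 set-25 embryos against wild-type (SE 0.208, edgeR adjusted p = 0.9997, approximate 95% interval -0.44 to 0.52), on the log2 scale. In cec-4 against wild-type it was -0.04 (SE 0.208, edgeR adjusted p = 0.9998, interval -0.52 to 0.43).

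The midbody gene lin-39 had 21.2 and 19.8 CPM in met-2 set-25, 23.9 and 27.7 CPM in cec-4, and 20.5 and 26.5 CPM in wild-type. The 2 libraries of met-2 set-25 lay below both of cec-4, while the wild-type pair overlapped both. The largest of its 3 differences was that of met-2 set-25 against cec-4, with a log2 fold change of -0.33 (SE 0.227, interval -0.85 to 0.19), and it did not pass (edgeR adjusted p = 0.684). Against wild-type the log2 fold change was -0.19 in met-2 set-25 (SE 0.227) and 0.13 in cec-4 (SE 0.227), neither of which passed (edgeR adjusted p = 0.9997 and 0.9998).

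The posterior body gene mab-5 had 12.0 and 12.4 CPM in met-2 set-25, 12.3 and 10.7 CPM in cec-4, and 10.7 and 14.7 CPM in wild-type. Its lowest and highest libraries were cec-4 replicate 2 and wild-type replicate 2, and all pairs of genotypes overlapped. The log2 fold change was -0.06 in met-2 set-25 embryos against wild-type (SE 0.258) and -0.14 in cec-4 against wild-type (SE 0.258), again without a call (edgeR adjusted p = 0.9997 and 0.9998). Against cec-4 it was 0.08 in met-2 set-25 (SE 0.259, interval -0.51 to 0.68, adjusted p = 0.946).

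The tail gene egl-5 was the least abundant member, with 185 to 361 counts a library. It stood at 6.13 and 6.78 CPM in met-2 set-25, 7.85 and 8.21 CPM in cec-4, and 7.53 and 8.62 CPM in wild-type. Both met-2 set-25 libraries were below the other 4. The log2 fold change was -0.32 against wild-type (SE 0.255, edgeR adjusted p = 0.9997, interval -0.91 to 0.26) and -0.31 against cec-4 (SE 0.255, adjusted p = 0.731, interval -0.90 to 0.27). In cec-4 against wild-type it was -0.01 (SE 0.254, interval -0.59 to 0.57, edgeR adjusted p = 0.9998). Counting alone gives a library of this gene an error of 5.26% to 7.35%.

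The embryonic tail genes nob-1 and php-3 varied least of the family over these 6 libraries. Transcripts of nob-1 stood at 23.0 and 22.5 CPM in met-2 set-25, 25.7 and 23.2 CPM in cec-4, and 24.6 and 23.0 CPM in wild-type. Those of php-3 stood at 20.97 and 18.97 CPM in met-2 set-25, 19.7 and 19.4 CPM in cec-4, and 18.9 and 20.3 CPM in wild-type. The genotypes overlapped for both genes, except that both met-2 set-25 libraries of nob-1 were below those of cec-4. The log2 fold changes of nob-1 were -0.06 in met-2 set-25 embryos against wild-type (interval -0.53 to 0.40), 0.04 in cec-4 against wild-type (-0.43 to 0.50) and -0.10 in met-2 set-25 against cec-4 (-0.57 to 0.36). Those of php-3 were 0.03 (-0.46 to 0.51), -0.00 (-0.49 to 0.48) and 0.03 (-0.46 to 0.51) in the same comparisons, and none of the 6 passed (edgeR adjusted p between 0.914 and 0.9998). The highest library stood at 1.14 times the lowest for nob-1 and 1.11 times for php-3, and at 1.35 to 1.41 times for the other 4 members. Over the 6 libraries the SD of log2 CPM was 0.0731 for nob-1 and 0.0579 for php-3. Among genes within 2-fold of the same abundance, 51 of 2882 had a smaller SD than nob-1 and 13 of 2710 a smaller SD than php-3. The corresponding shares were 16.6% for egl-5, 18.2% for mab-5, 37.9% for lin-39 and 46.3% for ceh-13, so all 6 were below the median of genes like them in abundance. Counting error alone is 2.97% to 3.79% of a library's value for nob-1 and 3.39% to 3.97% for php-3. On the same scale the SD of php-3 was about as large as its counting error. These 2 genes were singled out after their values were seen. The variation between libraries that edgeR estimated, sharing information among genes, was 17.2% for nob-1, 17.8% for php-3 and 16.5% for ceh-13. Whether the small spread would hold in more libraries was not tested.

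**Figure D1:**
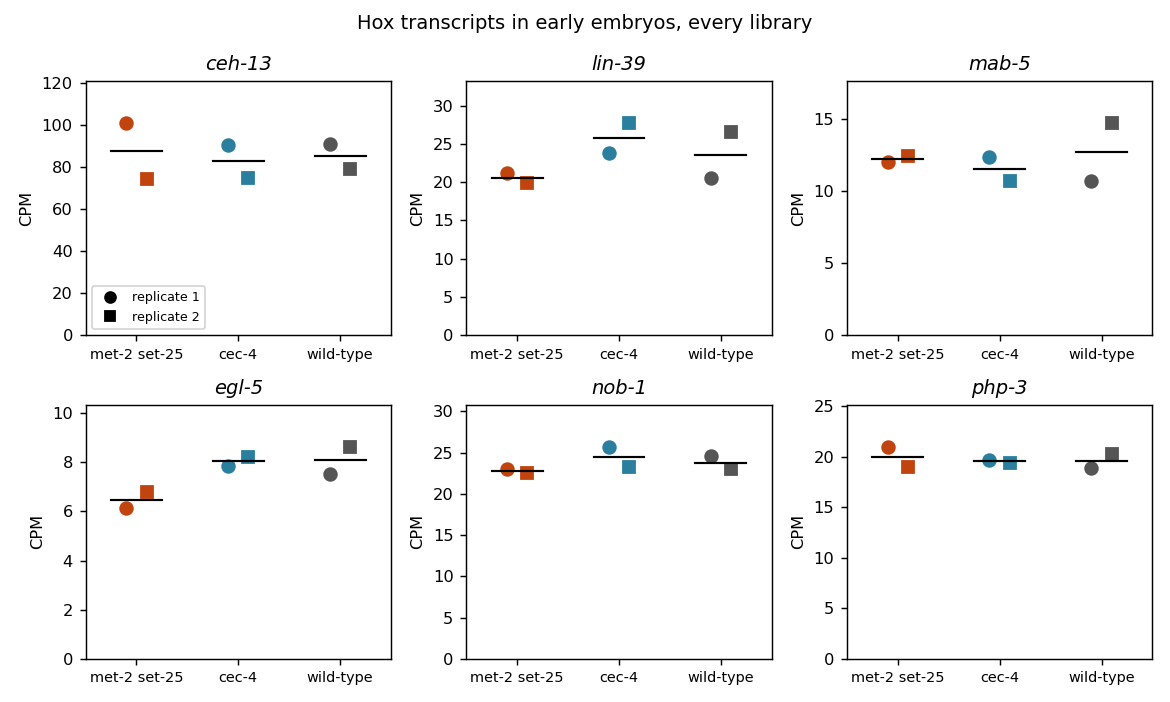
CPM (vertical axes, from 0) of each Hox gene in every library, with met-2 set-25, cec-4 and wild-type from left to right, circles for replicate 1, squares for replicate 2 and bars for the mean of 2 libraries. The 6 values of nob-1 and of php-3 are nearly level, ceh-13 is lower in replicate 2 of each genotype, and both met-2 set-25 values of egl-5 lie under the other 4.

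Over the whole family, 0 of 6 Hox genes passed in met-2 set-25 embryos against wild-type, where edgeR called 0.688% of all genes tested. Likewise 0 of 6 passed in cec-4 against wild-type (0.00717% of all genes called) and 0 of 6 in met-2 set-25 against cec-4 (0.638% called). In each comparison 0 of the 6 had an unadjusted edgeR p under 0.05, which 5.71% of all genes tested had in met-2 set-25 embryos against wild-type, 0.939% in cec-4 against wild-type and 10.2% in met-2 set-25 against cec-4. DESeq2 and limma voom called 0 of the 6 as well. Against these shares a count of 0 of 6 says little, and the intervals carry more. All 18 approximate 95% intervals lay inside a 2-fold change in either direction, the widest reaching 0.534-fold (egl-5, met-2 set-25 against wild-type) and 1.6-fold (mab-5, met-2 set-25 against cec-4). Changes inside these bounds, also those near 2-fold, could go uncalled with 2 libraries a genotype. The SE of the 18 log2 fold changes was 0.204 to 0.259. In met-2 set-25 against cec-4 the early zygotic gene sdz-38 did not pass at 0.75 (SE 0.226, edgeR adjusted p = 0.316). Nor did the maternal gene par-1 at -0.97 (SE 0.296, edgeR adjusted p = 0.319). The median log2 fold change of the 6 was -0.06 in met-2 set-25 embryos against wild-type, beside -0.03 over all genes tested. It was -0.01 beside -0.02 in cec-4 against wild-type, and -0.04 beside 0.01 in met-2 set-25 against cec-4. Libraries did not overlap for 1 Hox gene (egl-5) in met-2 set-25 embryos against wild-type (27.2% of all genes tested) and for 3 (lin-39, egl-5 and nob-1) in met-2 set-25 against cec-4 (44.9% of all genes). In cec-4 against wild-type they overlapped for every Hox gene, and over all genes tested they did not for 22.0%. The interval of egl-5 in met-2 set-25 embryos against wild-type reached past 2-fold, to -1.04, when only these 2 genotypes entered the fit. The comparisons with wild-type share its libraries, and those with met-2 set-25 share that strain's.

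**Figure D2:**
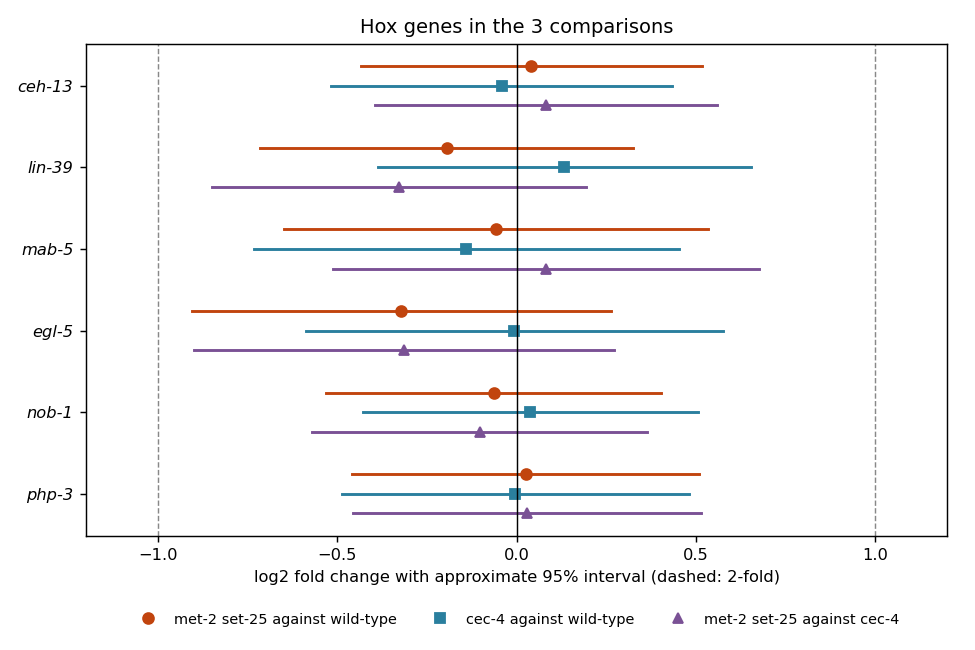
Log2 fold change (horizontal axis) with its approximate 95% interval for each Hox gene in the 3 comparisons, from the edgeR fit over all 13951 genes tested. All 18 intervals cross 0 and none reaches the dashed lines at 2-fold; the estimates farthest from 0 are those of lin-39 in met-2 set-25 against cec-4 and of egl-5 in both comparisons of met-2 set-25.

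Per kilobase of coding length the order of the family was ceh-13, lin-39, nob-1, php-3, mab-5 and egl-5. The level of ceh-13 was 144 ± 30.6 CPM per kb in met-2 set-25, 136 ± 17.96 in cec-4 and 140 ± 13.8 in wild-type (SD, n = 2 each). That of lin-39, next in order, was 26.9 ± 1.299, 33.8 ± 3.54 and 30.8 ± 5.59 CPM per kb in the same genotypes, and over all libraries the mean of ceh-13 was 4.57 times that of lin-39. The levels of lin-39 and nob-1 overlapped, with lin-39 higher in 2 of 6 libraries. With the annotated coding length of nob-1 in place of the deposited length, a choice made after the data were seen, nob-1 averaged 32.3 CPM per kb and came before lin-39. The level of nob-1 exceeded that of its neighbour php-3 in 6 of 6 libraries, and its mean was 1.24 times as high. Those of php-3 and mab-5 overlapped in range although php-3 was higher in 6 of 6 libraries. The level of mab-5 was 1.8 times that of egl-5, with ranges that did not overlap.

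Placed among all genes tested, ceh-13 stood above 90.9% of them in CPM per kb. The others stood near the middle, with lin-39 above 60.6%, nob-1 above 60.0%, php-3 above 56.3%, mab-5 above 53.4% and egl-5 above 45.2%. As a share of the summed level of the family, ceh-13 made up 50.9% to 59.8%, lin-39 10.1% to 15.03%, nob-1 10.4% to 12.2%, php-3 8.83% to 9.97%, mab-5 6.86% to 9.54% and egl-5 3.30% to 5.06% over the libraries. Within the pairs, the ratio of nob-1 to php-3 was 1.13 and 1.23 in met-2 set-25, 1.35 and 1.24 in cec-4, and 1.35 and 1.17 in wild-type. The ratio of mab-5 to egl-5 was 2.18 and 2.04 in met-2 set-25, 1.75 and 1.45 in cec-4, and 1.58 and 1.90 in wild-type. Both met-2 set-25 libraries stood above the other 4, as egl-5 by itself stood below the other 4 there. The difference in ratio was not tested, and the share of other gene pairs with such a gap is not given here. The ratio of ceh-13 to lin-39 was 5.93 and 4.69 in met-2 set-25, 4.74 and 3.39 in cec-4, and 5.56 and 3.73 in wild-type. In each genotype this ratio was lower in replicate 2, the replicate with the higher late differentiation sum and the lower early zygotic sum. The maternal sum went both ways. It was lower in replicate 2 of met-2 set-25 (2701 and 2215 CPM) and wild-type (3148 and 2426 CPM), and higher in that of cec-4 (3104 and 3542 CPM). The part of embryo age in the ratio of ceh-13 to lin-39 was not tested. How many other gene pairs show the same replicate order is not given here. The sources used here do not say how reads that match several genes were assigned, so the separate levels of nob-1 and php-3 are uncertain to that extent.

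**Figure D3:**
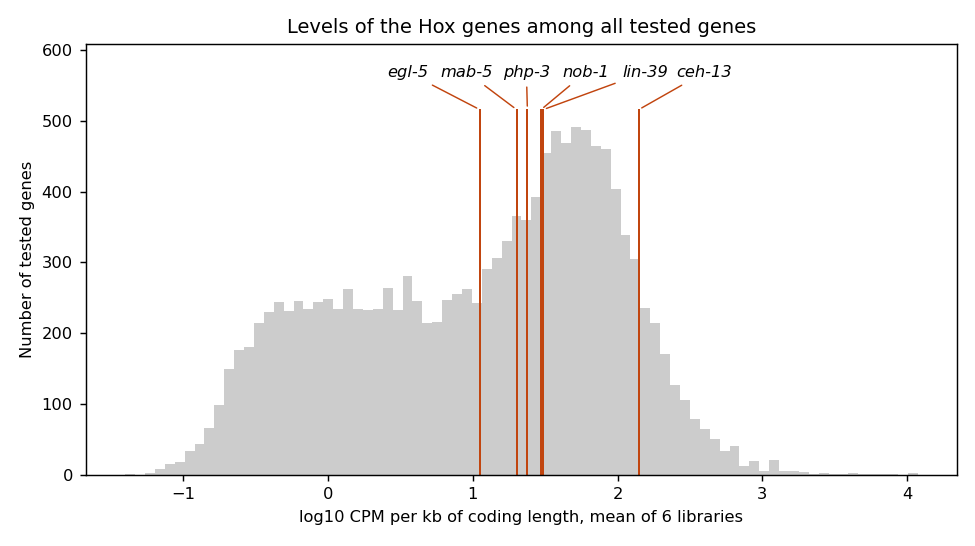
Histogram of the mean level of all 13951 genes tested (horizontal axis, log10 CPM per kb of coding length; vertical axis, number of genes), with a line at each Hox gene. The line of ceh-13 stands in the upper flank, above 90.9% of genes, and the other 5 lines stand between 45.2% and 60.6% of genes.

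By the root mean square difference in log2 CPM, centred on the mean of the 6 libraries, the genes most like each Hox gene were searched among 11238 others of at least 1 CPM. They were W02G9.3 and sec-20 for ceh-13 (differences of 0.0256 and 0.0279), B0395.3 and sqst-1 for lin-39 (0.0291 and 0.0325), and F41E6.5 and alh-5 for mab-5 (0.0442 and 0.0483). For egl-5 they were frm-2 and sphk-1 (0.0269 and 0.0330), for nob-1 ptps-1 and grld-1 (0.0182 and 0.0210), and for php-3 nurf-1 and arrd-4 (0.0253 and 0.0269). No Hox gene was among the nearest of another. The smallest distance within the family was that of nob-1 and php-3 at 0.0928, where php-3 ranked 1000 from nob-1 and nob-1 ranked 501 from php-3. Both varied little (SD of log2 CPM 0.0731 and 0.0579). Genes of low spread lie close by this measure whatever their patterns, so the distance does not show a shared pattern. These distances rest on 6 libraries and on the depth and scaling that all genes of a library share.

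The partners, regulators and reported targets of the Hox genes were read from 6 lists holding 62 genes, with psa-3 in 2 of the lists. Of these 61 were tested, and 0 passed in any of the 3 comparisons with edgeR. Unadjusted p under 0.05 was reached by 0 genes in met-2 set-25 embryos against wild-type, 0 in cec-4 against wild-type and 10 in met-2 set-25 against cec-4, all 10 with lower values in met-2 set-25. The shares over all genes tested were 5.71%, 0.939% and 10.2%, and the directions of all genes at that p are not given here. In each of the 10 genes the gap between met-2 set-25 and cec-4 was wider in replicate 2 than in replicate 1. For kin-19 the values were 235 and 126 CPM in met-2 set-25, and 252 and 373 CPM in cec-4. DESeq2 and limma voom called 0 of the 61. Log2 fold changes were positive in 16 of 61 genes in met-2 set-25 embryos against wild-type (45.9% of all genes tested), in 49 of 61 in cec-4 against wild-type (45.3%) and in 13 of 61 in met-2 set-25 against cec-4 (51.6%). The medians were -0.12, 0.13 and -0.20. All 61 genes were read in the same libraries, so their signs are not independent. The 18 maternal transcripts had medians of the same signs, -0.23, 0.24 and -0.47 in the same order, with 3, 17 and 2 of 18 positive. So had 14 regulators of tissue specification, with medians of -0.11, 0.10 and -0.19 and 2, 9 and 1 positive. Of these nhr-25 is also among the 62 genes. Early zygotic genes, 16 of them tested, had medians of 0.21, -0.00 and 0.27, and 17 late differentiation genes had medians of -0.17, -0.07 and -0.01. In each of these 4 lists 0 members passed (edgeR). The summed level of the maternal transcripts was 2701 and 2215 CPM in met-2 set-25, 3104 and 3542 CPM in cec-4, and 3148 and 2426 CPM in wild-type. The part of embryo stage in the values of the Hox regulators was not tested.

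Among the cofactors, the PBC genes ceh-20, ceh-40 and ceh-60 averaged 240, 101 and 4.39 CPM per kb over the libraries, and the Meis genes unc-62 and psa-3 averaged 64.4 and 33.2. Transcripts of ceh-20, which encodes the main PBC partner of Hox proteins, had 213 and 212 CPM in met-2 set-25, 244 and 300.3 CPM in cec-4, and 212 and 282 CPM in wild-type. The smallest p of the list was that of ceh-20 in met-2 set-25 against cec-4 (log2 fold change -0.36, SE 0.194, edgeR adjusted p = 0.585). For psa-3, a Meis gene reported as a target of NOB-1, with 27.9 and 29.4 CPM in met-2 set-25, 31.8 and 25.8 CPM in cec-4, and 28.7 and 28.6 CPM in wild-type, the log2 fold changes were -0.00 in met-2 set-25 embryos against wild-type, 0.01 in cec-4 against wild-type and -0.01 in met-2 set-25 against cec-4.

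Among 8 Polycomb-type repressors, which include the H3K27 methyltransferase complex genes mes-2, mes-3 and mes-6, the median log2 fold change was -0.03 in met-2 set-25 embryos against wild-type and 0.05 in cec-4 against wild-type. The member of smallest p was spat-3, a homologue of the PRC1 RING finger genes, at 425 and 179 CPM in met-2 set-25, 480 and 678 CPM in cec-4, and 410 and 424 CPM in wild-type. Its log2 fold change in met-2 set-25 against cec-4 was -0.94 (SE 0.361, edgeR adjusted p = 0.439). The 2 met-2 set-25 libraries differed more from each other than their mean did from the wild-type mean. Among 9 trithorax-type and other chromatin regulators of Hox genes, 1 was positive in met-2 set-25 embryos against wild-type and 9 in cec-4 against wild-type, with medians of -0.11 and 0.17. There lin-59, an Ash1-like gene needed to keep Hox genes on in the hindgut, had 172 and 104 CPM in met-2 set-25, 198 and 301 CPM in cec-4, and 160 and 210 CPM in wild-type. Its log2 fold change in met-2 set-25 against cec-4 was -0.85 (SE 0.293, edgeR adjusted p = 0.407).

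Wnt signals, which turn on several Hox genes in C. elegans, were represented by 27 genes, all tested. The medians were -0.11 in met-2 set-25 embryos against wild-type, with 8 positive, and 0.13 in cec-4 against wild-type, with 23 positive. The TCF gene pop-1 had the smallest p, at 245 and 143 CPM in met-2 set-25, 284 and 382 CPM in cec-4, and 228 and 276 CPM in wild-type (met-2 set-25 against cec-4: log2 fold change -0.78, SE 0.272, edgeR adjusted p = 0.414). Of 8 posterior and partner transcription factors, such as the Caudal gene pal-1, 7 were tested, with medians of -0.21 in met-2 set-25 embryos against wild-type and 0.07 in cec-4 against wild-type. The remaining one, lin-31, held 4 to 11 counts a library. The smallest p there belonged to the Pax-6 gene vab-3, at 38.2 and 31.1 CPM in met-2 set-25, 44.1 and 64.6 CPM in cec-4, and 38.2 and 45.9 CPM in wild-type (met-2 set-25 against cec-4: -0.65, SE 0.243, edgeR adjusted p = 0.432).

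Genes reported as Hox targets were 6, all tested. In met-2 set-25 embryos against wild-type 0 were positive, with a median of -0.23, beside 45.9% positive and -0.03 over all genes tested. The highest of the 6 was -0.000113, so its sign carries no weight. In cec-4 against wild-type 3 were positive, with a median of -0.09. The least abundant targets were hlh-8 (1.32 to 2.53 CPM) and lag-2 (1.45 to 2.57 CPM). The GATA factor gene egl-18, a target of LIN-39 in the vulval precursors, had 143 and 96.5 CPM in met-2 set-25, 153 and 190 CPM in cec-4, and 132 and 155 CPM in wild-type. Its log2 fold change in met-2 set-25 against cec-4 was -0.52 (SE 0.227, edgeR adjusted p = 0.489), and the wild-type pair overlapped that of met-2 set-25. Most of these targets are known from larval tissues.

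**Figure D4:**
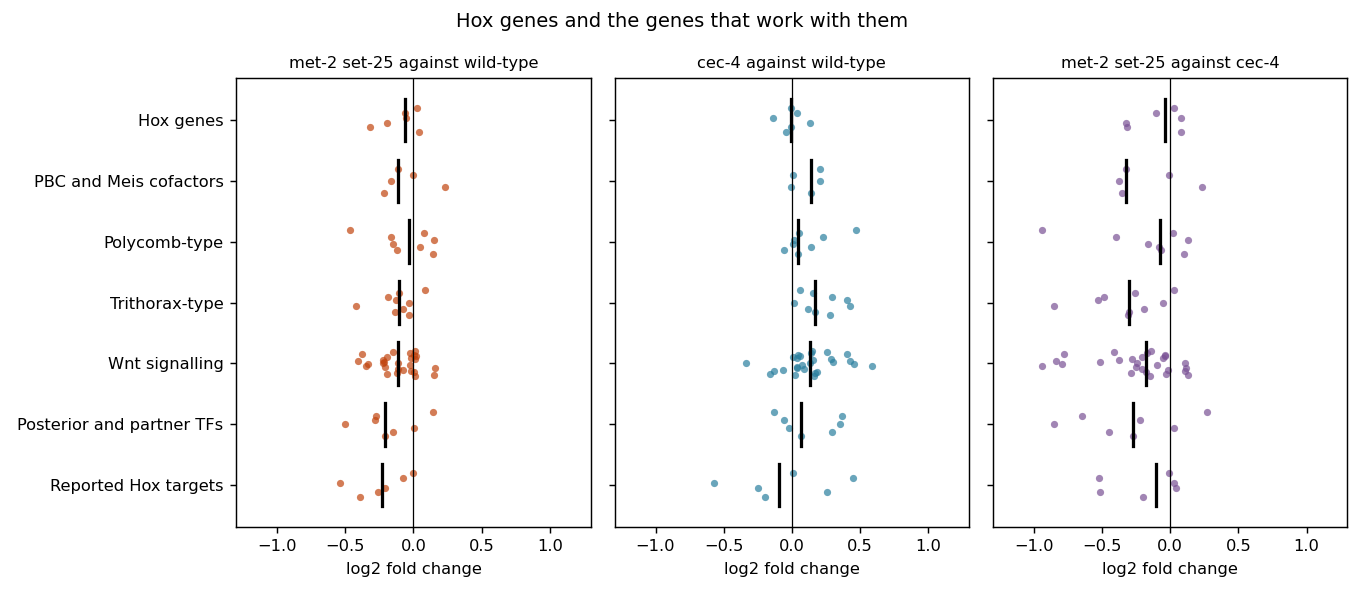
Log2 fold change (horizontal axes) of each tested member of the Hox family and of 6 lists of genes that act with it, in the 3 comparisons; dots are genes and black bars the list medians. The medians of all 6 lists lie below 0 in both comparisons of met-2 set-25, and those of all but the reported targets lie above 0 in cec-4 against wild-type.

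The 3 nearest counted genes that are not Hox genes on either side of each member, 19 in all since members of a pair share neighbours, were read in the same fit. Of these 16 were tested and 0 passed in any comparison, with 0 at an unadjusted p under 0.05 in each (edgeR; 5.71%, 0.939% and 10.2% of all genes tested) and 0 called by DESeq2 and limma voom. The 3 untested genes, ttr-8, ttr-32 and the homeobox gene ceh-23, had at most 8 counts in any library. Medians of the 16 were -0.11 in met-2 set-25 embryos against wild-type, 0.03 in cec-4 against wild-type and -0.18 in met-2 set-25 against cec-4, with 3, 10 and 4 positive. The smallest p belonged to Y79H2A.3, left of php-3, at 227 and 149 CPM in met-2 set-25, 222 and 305 CPM in cec-4, and 191 and 225 CPM in wild-type (met-2 set-25 against cec-4: log2 fold change -0.49, SE 0.247, edgeR adjusted p = 0.551). Levels next to the Hox genes covered a wide range. The ligand-gated channel gene lgc-12, 4130 bp from ceh-13, averaged 0.506 CPM per kb, and the translation factor gene egl-45, 7235 bp from egl-5, averaged 134 CPM per kb, both named after their values were seen.

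**Figure D5:**
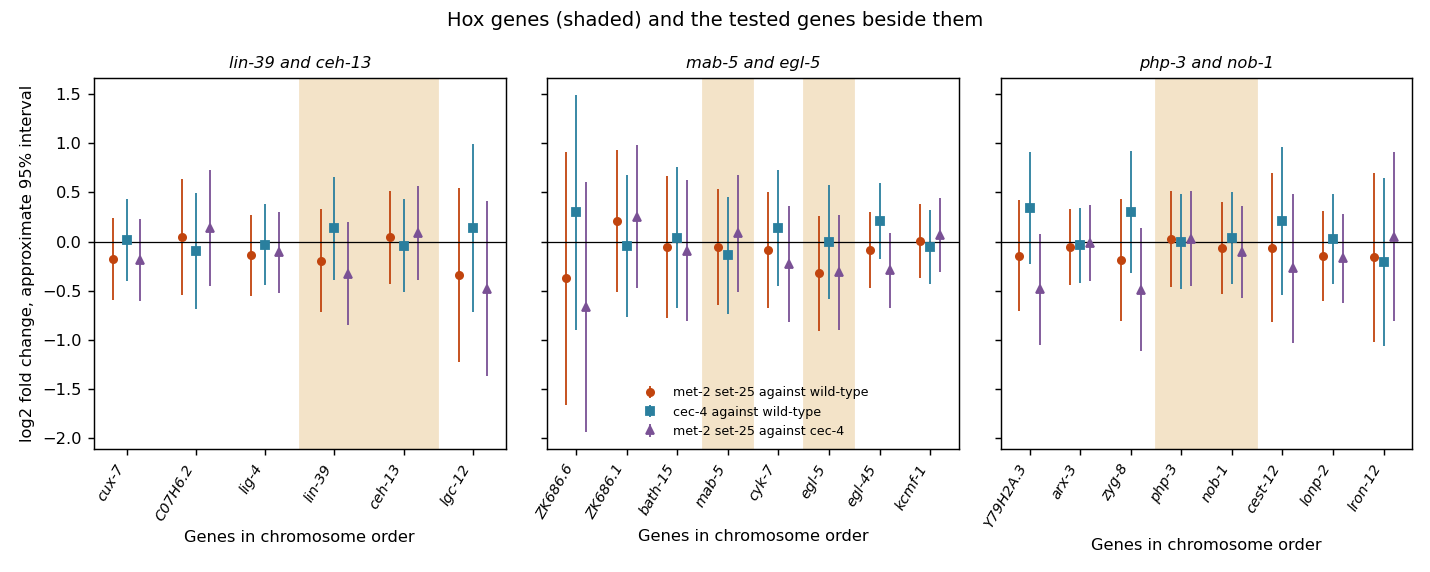
Log2 fold changes with approximate 95% intervals (vertical axis) of the Hox genes (shaded) and the tested genes beside them, in chromosome order for the 3 Hox pairs. Every interval of the 16 neighbours crosses 0, as do those of the Hox genes, and the widest belong to ZK686.6 and lgc-12.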

How the data were processed

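For each of 20182 genes the authors deposited a raw read count per library and a log2 normalized value. Judged from the numbers, the authors' log2 value follows from scaling counts to the average total and adding 8 (largest deviation 5.15e-14). Per the labels' protocols, 5 µg of total RNA was depleted of ribosomal RNA with Ribo-Zero, 50 ng went into ScriptSeq v2 libraries, and sequencing ran for 51 cycles. The sources used here name no aligner, genome build or counting tool, nor whether strand was used. Deposited gene lengths are multiples of 3 in 96.63% of genes, as coding lengths are, and equal the merged WBcel235 coding length in 73.3% of 18772 genes. Levels per kb, and their percentiles over all genes, rest on the deposited lengths. Windows of 500 bp were not used here, since their build is not named. No sequence is printed, since no sequence file was used here.

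The count test was edgeR's (4.0.16, under R 4.3.3): filterByExpr by genotype, TMM, and the quasi-likelihood test in a single fit of all 6 libraries with genotype as the term. P-values were adjusted by Benjamini-Hochberg over 13951 genes, with a threshold of 0.05. SE is the absolute log2 fold change over the square root of F, and intervals use the t distribution with the fit's degrees of freedom, so both are approximate. Errors after ± are SDs over 2 libraries. Replicates differed by more than sampling noise (chi-square per degree of freedom 46.4 in met-2 set-25, 65.6 in cec-4 and 111 in wild-type), and intervals of counting error cover counting only. The steps were also run on simulated counts drawn with the fit's own dispersions. That run cannot show whether the model suits these data. Positions come from WBcel235, which placed 19513 of the genes.

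The members, lists and tests were chosen with earlier results of these data known. All 6 Hox genes are named. Of other lists each passing member is named, or the member of smallest p, and other names are examples or were chosen after their values were seen. For likeness, the 2 nearest genes to each Hox gene are named. Alternatives were scalings by DESeq2 size factors and upper quartile, other filters, DESeq2 1.42.0, limma 3.58.1 (voom, and on the deposited log2 values), fits of the 2 compared genotypes alone, a threshold of 0.01, a replicate block, and each library left out.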

Additional observations from a re-analysis of the deposited data

How the results depend on the processing

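Over 16 alternatives 0 Hox genes, 0 of their regulators, partners and targets, and 0 of the genes beside them were called in any of the 3 comparisons. The threshold of 0.01 reads the main fit again, so its 0 calls were fixed, and its Hox values, counted below, could not change sign. The largest absolute log2 fold change of a Hox gene was 0.44 (lin-39, met-2 set-25 against cec-4, without cec-4 replicate 1). Of 288 Hox values 22 changed sign, the largest of them reaching 0.20. With limma on the deposited log2 values these were mab-5 in met-2 set-25 embryos against wild-type (0.00529), nob-1 in cec-4 against wild-type (-0.023) and nob-1 in met-2 set-25 against cec-4 (0.00567). The others came from leaving out met-2 set-25 replicate 1, either cec-4 library or either wild-type library. Over all 6 fits that leave out 1 library, the log2 fold change of met-2 set-25 embryos against wild-type lay between -0.19 and 0.24 for ceh-13, -0.37 and 0.018 for lin-39, -0.27 and 0.20 for mab-5, and -0.046 and 0.095 for php-3. That of cec-4 against wild-type lay between -0.18 and 0.10 for ceh-13, -0.040 and 0.34 for lin-39, -0.35 and 0.12 for mab-5, -0.10 and 0.11 for egl-5, -0.034 and 0.12 for nob-1, and -0.052 and 0.060 for php-3. That of met-2 set-25 against cec-4 lay between -0.15 and 0.28 for ceh-13, -0.026 and 0.19 for mab-5, and -0.045 and 0.098 for php-3. The cause was not tested. With 1 library left out, some intervals of egl-5, lin-39 and mab-5 reached past 2-fold, the lowest bound being -1.25 (egl-5, met-2 set-25 embryos against wild-type, without met-2 set-25 replicate 2).

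With the replicate number as a block, 0 Hox genes, 0 regulators and 0 neighbours were called, and the smallest adjusted p of a Hox gene over the alternatives was found there (edgeR, lin-39 in met-2 set-25 against cec-4, 0.414, log2 fold change -0.32). Deviations of same-numbered libraries correlated across genes at 0.190 for met-2 set-25 and cec-4, 0.295 for met-2 set-25 and wild-type, and 0.531 for cec-4 and wild-type. The labels give 3 libraries per pool but tie the replicate numbers to no shared day or batch. The unblocked fit was therefore kept as the main one, and a shared batch of same-numbered libraries was not tested. Over all genes the block gave 191 calls in met-2 set-25 embryos against wild-type, 2 in cec-4 against wild-type and 295 in met-2 set-25 against cec-4, where the unblocked fit gave 96, 1 and 89. Over the alternatives that kept all libraries these counts were 16 to 203, 0 to 2 and 20 to 295, and with 1 library left out 10 to 107, 0 to 1 and 9 to 211.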
